A study of Mus musculus with 36 samples.

Results

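The 7 genes described here encode 6 enzymes of cholesterol synthesis and a sensor that restrains it: Hmgcs1, Idi1, Fdft1, Sqle, Lss, Dhcr7 and Insig1. They were taken by symbol from the 56980 gene rows of a count table of mouse brain RNA, and all 7 were among the 25601 genes that passed the filter on low counts. Mice of 37 to 45 days of age that lacked Ndufs4 (knockout, KO) or carried it (wild type, WT) received CP2 or vehicle by gavage on 3 days in a row. NDUFS4 is an accessory subunit of complex I of the mitochondrial respiratory chain, and CP2 is a small molecule that the series' title calls a complex I inhibitor. Each title also carries the letter F or M, so that genotype, treatment and letter gave 8 groups of 36 samples: KO vehicle M and WT vehicle M held 3 samples each, and the other 6 groups held 5 each. The labels name no strain, no Cre and no allele beyond the knockout, and no vehicle composition or dose. The tissue label is brain in every sample, while hippocampus and cortex are named in the text on the series' design, so the share of either region in a sample was not given. That the samples came from separate animals was read from the distinct numbers in the titles (L201 and so on), and p-values measure the spread between these samples.

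Cholesterol of the brain is made within the brain, because lipoproteins of the blood hardly cross its barrier. Oligodendrocytes use it for myelin, and astrocytes make it and hand it to neurons on ApoE particles. The pathway runs from acetyl-CoA through mevalonate and isopentenyl units to squalene, which is oxidised, closed into lanosterol and trimmed to cholesterol. Its genes are switched on together by the transcription factor SREBP2, which SCAP carries from the endoplasmic reticulum to be cleaved when sterols are scarce, and which INSIG proteins hold back when sterols are plentiful.

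Promoter sequences were at hand in RefSeq (build GRCm38.p6) for 5 of the 7 genes, as windows of 300 bases from 250 before to 50 after the start of transcription. They are shown for Lss and Insig1, the genes called below, and for Hmgcs1 and Idi1, which stand for the genes that varied together, so that the strings bound by the known regulators of the pathway can be seen. Capitals mark matches on either strand to CACNCCAC (the core of a sterol regulatory element, SRE-like), CCAAT (bound by NF-Y), GGGCGG (a GC box, bound by Sp1) and CACGTG (an E-box).
Hmgcs1 (chr13:119690101-119690400, + strand): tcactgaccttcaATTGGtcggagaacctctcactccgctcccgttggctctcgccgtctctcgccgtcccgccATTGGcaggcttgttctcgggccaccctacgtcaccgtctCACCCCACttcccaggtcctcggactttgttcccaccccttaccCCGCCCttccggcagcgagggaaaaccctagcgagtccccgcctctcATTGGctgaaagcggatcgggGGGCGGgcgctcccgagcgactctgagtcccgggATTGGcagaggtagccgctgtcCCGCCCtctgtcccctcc
Idi1 (chr13:8885356-8885655, + strand): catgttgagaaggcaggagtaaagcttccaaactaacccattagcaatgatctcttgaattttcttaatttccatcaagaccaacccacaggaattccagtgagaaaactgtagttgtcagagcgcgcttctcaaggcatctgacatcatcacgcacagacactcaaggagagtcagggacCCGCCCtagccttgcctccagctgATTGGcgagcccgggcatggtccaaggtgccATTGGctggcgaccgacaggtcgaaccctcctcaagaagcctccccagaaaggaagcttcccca
Lss (chr10:76531355-76531654, + strand): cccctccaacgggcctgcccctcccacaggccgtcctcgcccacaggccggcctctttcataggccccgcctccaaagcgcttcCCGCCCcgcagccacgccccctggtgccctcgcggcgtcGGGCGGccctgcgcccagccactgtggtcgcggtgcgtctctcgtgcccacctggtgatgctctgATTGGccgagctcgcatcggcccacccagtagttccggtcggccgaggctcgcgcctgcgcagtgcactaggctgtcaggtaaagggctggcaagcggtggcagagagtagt
Insig1 (chr5:28071162-28071461, + strand): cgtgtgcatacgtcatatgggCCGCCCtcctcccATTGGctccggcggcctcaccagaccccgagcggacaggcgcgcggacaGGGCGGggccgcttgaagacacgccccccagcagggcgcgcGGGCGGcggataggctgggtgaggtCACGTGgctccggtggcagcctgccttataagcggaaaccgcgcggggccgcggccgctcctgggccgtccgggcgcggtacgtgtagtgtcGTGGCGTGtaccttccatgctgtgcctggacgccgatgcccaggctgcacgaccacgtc
The Hmgcs1 window held 1 SRE-like string, 136 bases before the start, with 4 CCAAT strings and 3 GC boxes. The Insig1 window held 1 SRE-like string, 9 bases before the start, with 1 CCAAT string, 3 GC boxes and 1 E-box. The Idi1 window held 2 CCAAT strings and 1 GC box, and the Lss window 1 CCAAT string, 62 bases before the start, and 2 GC boxes. No SRE-like string was among the letters of these Idi1 and Lss windows, and no match overlapped another. Among all 32544 RefSeq promoter windows of this length, 6.23% held the SRE-like string, 37.4% CCAAT, 35.9% the GC box and 7.17% the E-box. Dhcr7 had 3 windows, which held 2 CCAAT strings, 4 GC boxes and 1 E-box between them.

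The total of gene counts lay between 46124548 and 88559920 in each sample, with a median of 54749039.5, and no count of the 7 genes in any sample was below 604. The label check on the targeted gene gave 27.4 to 39.1 CPM (counts-per-million) of Ndufs4 in KO samples and 38.9 to 62.8 CPM in WT samples, with a log2 fold change of -0.65 (SE 0.070, edgeR adjusted p = 3.75e-07) in vehicle and -0.45 (SE 0.060, adjusted p = 3.21e-06) with CP2. Counts over the whole gene remained, and which exons they cover was not analysed here. Xist was at 439 to 798 CPM in the 20 F samples and at most 0.83 CPM in the M samples, except for 47.3 CPM in L291 (KO CP2 M), while Ddx3y was at 61.8 to 84.5 CPM in all 16 M samples and at most 0.21 CPM in F samples. L266 stood apart from the other KO CP2 M samples in the comparison of replicates (mean chi-square per gene at least 83.2, against at most 40.7 between the others). A fit without L266 and L291 together left the number of these 7 genes called the same in every comparison.

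Per kilobase of annotated exon, the mean over 36 samples was 61.2 CPM for Hmgcs1, 31.3 for Insig1, 20.7 for Fdft1, 13.7 for Sqle, 7.08 for Idi1, 6.72 for Dhcr7 and 4.44 for Lss. Lss has the longest annotated exon union of the 7, 10787 bases, which lowers its level on this scale. Each gene varied between samples by a factor of 1.80 (Lss, the lowest factor) to 3.20 (Idi1). Within KO the spread was wider than within WT for every gene: the SD of Hmgcs1 was 61.5 CPM over 18 KO samples and 26.2 CPM over 18 WT samples, that of Sqle 14.9 against 5.07 CPM, and that of Dhcr7 5.73 against 4.73 CPM. The difference in spread was not tested.

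**Figure D1:**
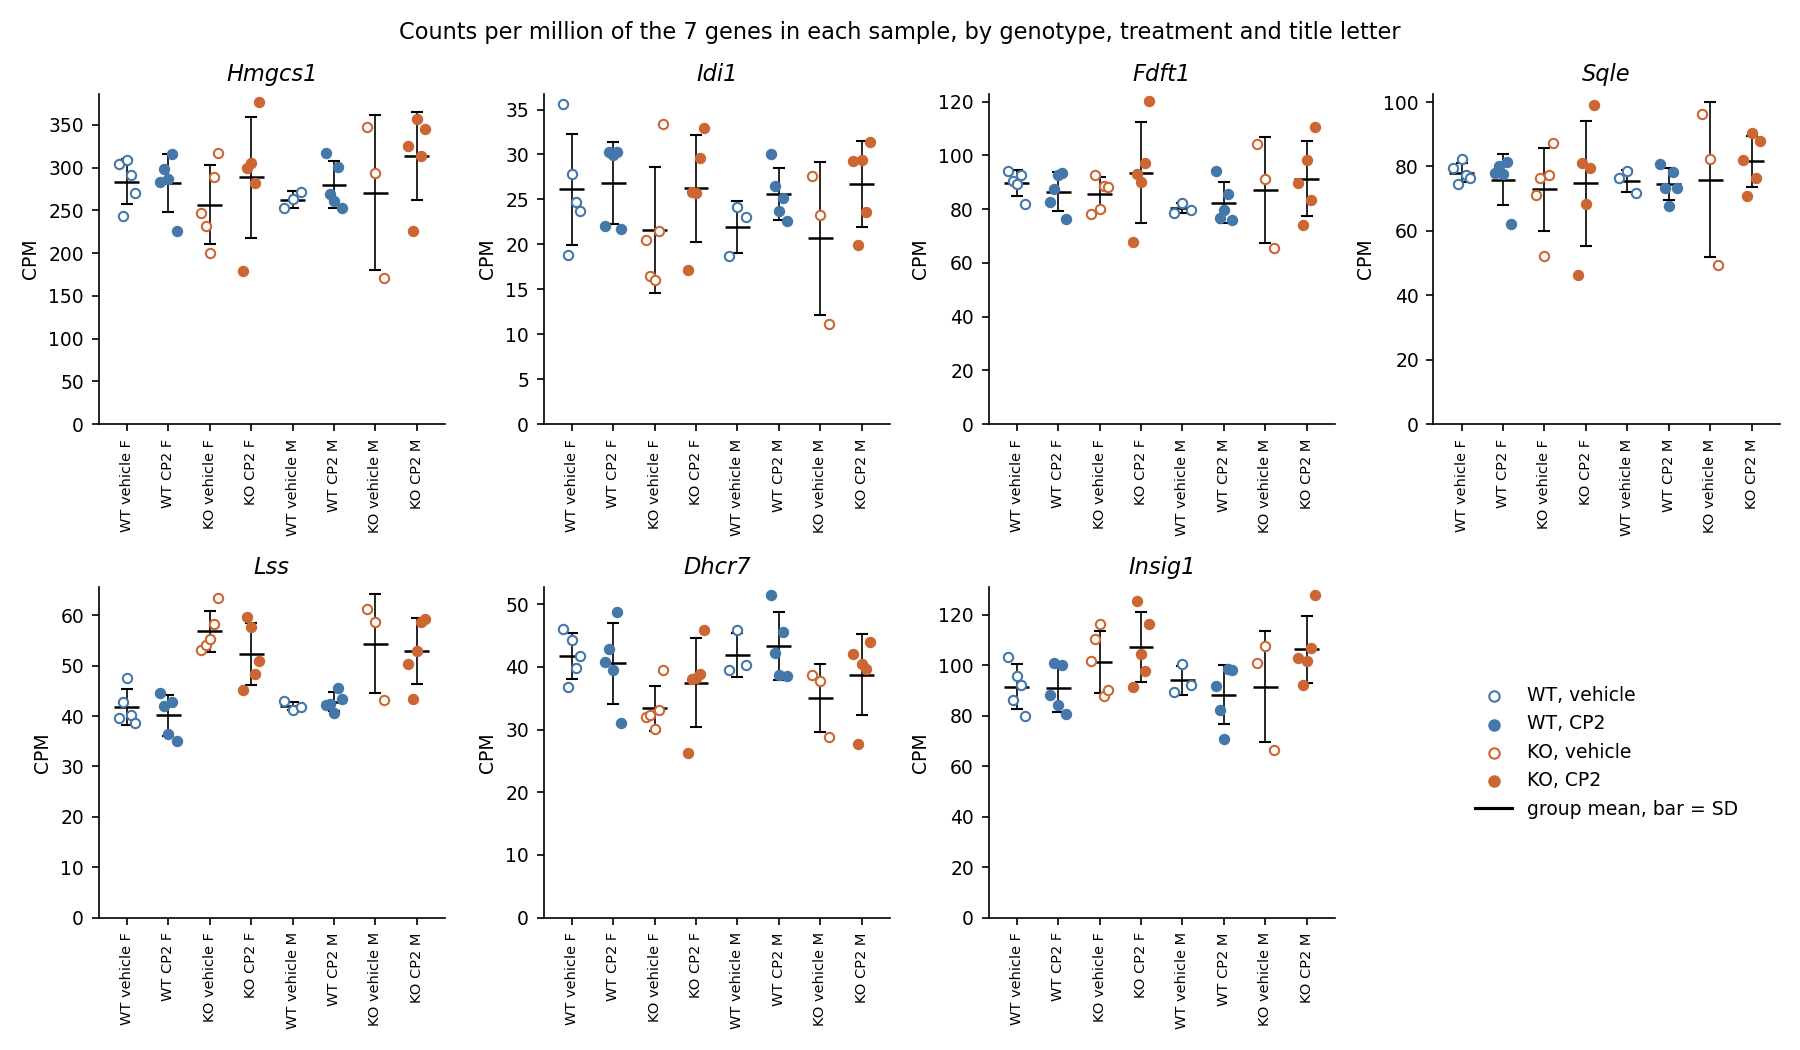
Level of each gene (CPM, linear axis from 0) in every sample, by group; points are samples, open for vehicle and filled for CP2, blue for WT and orange for KO, and the bar is the mean with its SD. The KO points of Lss sit at 43.1 to 63.3 CPM and the WT points at 35.1 to 47.6 CPM, so these ranges overlap in part. The KO and WT points of Hmgcs1, Idi1, Fdft1 and Sqle overlap over most or all of the WT range.

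Lss, lanosterol synthase, which folds oxidosqualene into the first sterol of the pathway, was the gene of the 7 that differed most between the genotypes on average. Its ranges over all samples overlapped, at 43.1 to 63.3 CPM in KO and 35.1 to 47.6 CPM in WT. In F samples given vehicle it was at 53.2 (L246), 54.0 (L279), 55.2 (L281), 58.3 (L282) and 63.3 CPM (L283) in KO. The WT samples of the same letter and treatment were at 39.7 (L252), 42.8 (L277), 47.6 (L278), 40.2 (L295) and 38.6 CPM (L296). Every KO sample was above every WT sample, and the log2 fold change was 0.44 (SE 0.089, edgeR adjusted p = 0.00273). Lss was the 1 gene of the 7 called in this comparison, in which 4.96% of all genes tested were called at an adjusted p under 0.05 and 1.83% were higher in KO without overlap.

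In M samples given vehicle, Lss was at 61.3 (L310), 58.6 (L319) and 43.1 CPM (L322) in KO and at 42.9 (L285), 41.2 (L300) and 41.9 CPM (L303) in WT. The groups did not overlap, but L322 lay just above the highest WT sample. The log2 fold change of 0.37 (SE 0.12, adjusted p = 0.126) was not called by edgeR, and DESeq2 called it (0.38, adjusted p = 0.0457). None of the 7 genes was called here by edgeR, where 0.516% of all genes were called and 10.5% were higher in KO without overlap. Averaged over F and M, Lss was 1.33-fold higher in KO given vehicle (log2 fold change 0.41, SE 0.073, adjusted p = 0.000596), again alone among the 7, where 6.67% of all genes were called. The F and M differences were 0.07 apart (SE 0.15, adjusted p = 0.959), and 0.102% of all genes were called in that contrast.

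With CP2, the KO samples of F had 45.3 (L201), 59.6 (L216), 57.6 (L227), 48.3 (L233) and 50.9 CPM (L234) of Lss. The WT samples of F had 44.5 (L228), 42.0 (L240), 36.5 (L257), 42.7 (L272) and 35.1 CPM (L311). The groups again did not overlap, and Lss was the 1 gene of the 7 called (log2 fold change 0.38, SE 0.089, adjusted p = 0.0178), against a background of 2% of all genes called and 1.25% higher without overlap. In M the KO samples had 50.4 (L266), 43.4 (L291), 53.0 (L292), 58.7 (L298) and 59.3 CPM (L299), and the WT samples 42.3 (L259), 42.3 (L262), 40.5 (L263), 45.6 (L267) and 43.4 CPM (L289). Here L291 lay within the WT range, and the other 4 KO samples lay above it. The log2 fold change was 0.31 (SE 0.089, adjusted p = 0.0221), 1 call of 7 where 9.99% of all genes were called.

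Averaged over F and M, Lss was 1.27-fold higher in KO given CP2 (log2 fold change 0.34, SE 0.063, adjusted p = 0.000252). The F and M differences with CP2 were 0.08 apart (SE 0.13, adjusted p = 0.845), in a contrast with 0.82% of all genes called. Both averages, with CP2 and in vehicle, passed the threshold in every alternative fit and with each of the 36 samples left out in turn, at 0.32 to 0.37 and 0.36 to 0.48. The separate calls were less firm. The F call with CP2 was lost without L216 (adjusted p = 0.0582), without L257 (0.0733) and in a fit of only the groups compared (0.0889). The M call with CP2 was lost without L298 (0.0614), L299 (0.0815), L262 (0.0539) or L263 (0.0648), and with the fraction of reads outside genes in the model, where the log2 fold change was 0.19 (SE 0.11, adjusted p = 0.393).

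The 8 group means of Lss ran from 56.8 ± 4.12 CPM (SD, n = 5) in KO vehicle F through 54.3 ± 9.81 (n = 3) in KO vehicle M, 53.0 ± 6.54 (n = 5) in KO CP2 M and 52.3 ± 6.10 (n = 5) in KO CP2 F. The WT groups followed at 42.8 ± 1.87 (CP2 M, n = 5), 42.0 ± 0.879 (vehicle M, n = 3), 41.8 ± 3.61 (vehicle F, n = 5) and 40.2 ± 4.10 CPM (CP2 F, n = 5). The step from the lowest KO group to the highest WT group, 9.51 CPM, was the only step between neighbouring groups, in any of the 7 genes, that exceeded the sum of the 2 SDs. Treatment and letter did not order the groups within a genotype beyond that spread. Since these are bulk samples, a change in the number of cells that express a gene and a change in RNA per cell cannot be told apart.

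**Figure D2:**
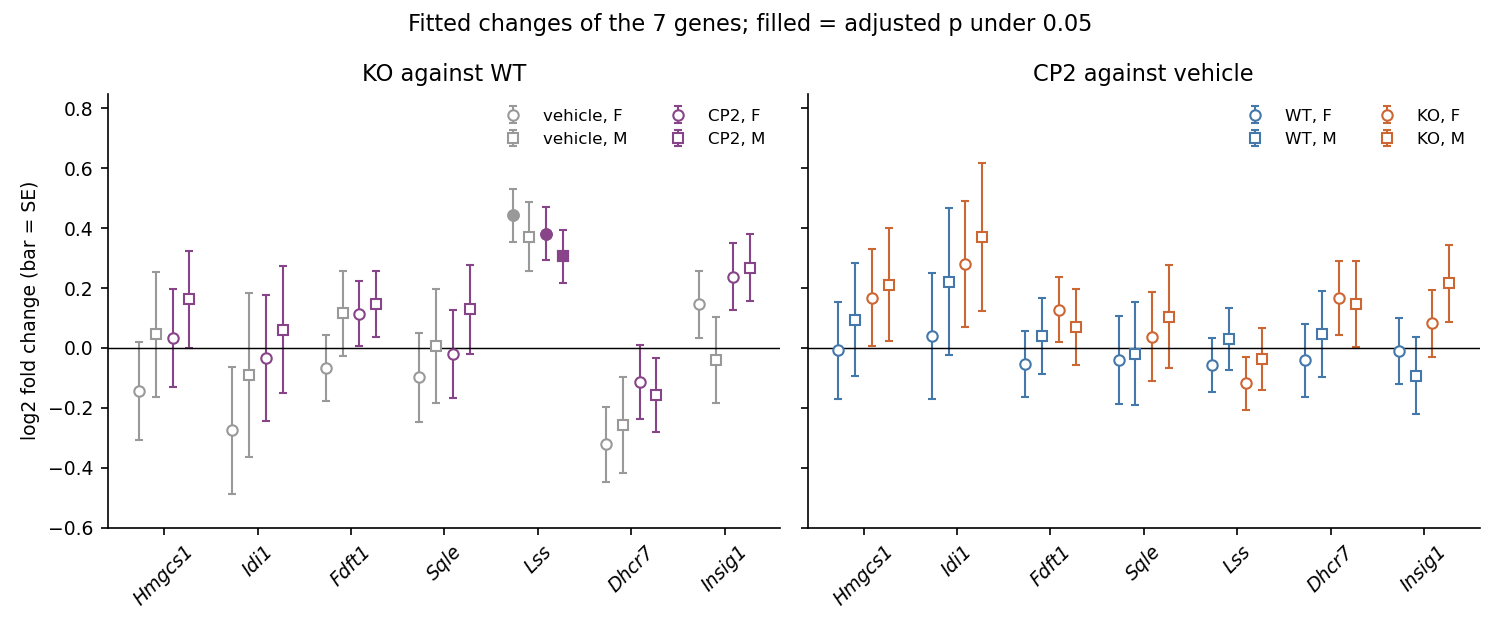
Fitted log2 fold change of each gene with its SE (bars), KO against WT on the left and CP2 against vehicle on the right, for F (circles) and M (squares); filled symbols passed an adjusted p under 0.05. Lss is filled in vehicle F (0.44), CP2 F (0.38) and CP2 M (0.31), and no symbol on the right is filled.

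Upstream of Lss, no genotype difference passed the test. Hmgcs1 makes the HMG-CoA that feeds the mevalonate route, and its log2 fold change in KO was -0.05 (SE 0.13, adjusted p = 0.874) in vehicle and 0.10 (SE 0.11, adjusted p = 0.670) with CP2, averaged over F and M. Idi1 interconverts the isopentenyl building blocks and gave -0.18 (SE 0.17, adjusted p = 0.592) and 0.01 (SE 0.15, adjusted p = 0.972). Fdft1, squalene synthase, gave 0.02 (SE 0.090, adjusted p = 0.913) and 0.13 (SE 0.078, adjusted p = 0.311). Sqle, squalene epoxidase, which makes the substrate of Lss, gave -0.05 (SE 0.12, adjusted p = 0.869) and 0.05 (SE 0.10, adjusted p = 0.817). The 95% intervals of Sqle, -0.28 to 0.19 in vehicle and -0.15 to 0.26 with CP2, leave room for a change of either sign. KO and WT values of Sqle overlapped in every pair of groups, from 46.3 CPM (L201, KO CP2 F) to 99.0 CPM (L234, also KO CP2 F). The extremes of Hmgcs1 were KO samples as well, 171 CPM in L322 and 377 CPM in L234. Fdft1 shares annotated exon with Ctsb on the opposite strand (514 CPM), and whether the counting used the strand is not given in the sources used here, so reads of the 2 genes may be mixed or dropped there.

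Dhcr7, which carries out a last step to cholesterol, lay lower in KO without passing the test. Its vehicle F values were 32.1 (L246), 32.3 (L279), 30.1 (L281), 33.1 (L282) and 39.4 CPM (L283) in KO and 46.1 (L252), 36.8 (L277), 44.4 (L278), 39.9 (L295) and 41.8 CPM (L296) in WT. The vehicle M values were 38.7 (L310), 37.7 (L319) and 28.8 CPM (L322) in KO and 39.5 (L285), 45.8 (L300) and 40.4 CPM (L303) in WT. In F only L283 reached the WT range, and in M the 3 KO samples were below the 3 WT samples, as held for 10.3% of all genes in that comparison. Averaged over F and M the log2 fold change was -0.29 (SE 0.101, adjusted p = 0.0751) in vehicle and -0.14 (SE 0.087, adjusted p = 0.357) with CP2. The vehicle average passed the threshold in a fit of only the groups compared (adjusted p = 0.0273) and without L201 (0.0427), L283 (0.0447) or L291 (0.0494). With the fraction of reads outside genes in the model it shrank to -0.12 (SE 0.10, adjusted p = 0.686), and over the other alternative fits of all 36 samples its adjusted p was 0.0551 (DESeq2) to 0.108 (no low-count filter). The means of the 4 WT groups, 40.6 to 43.3 CPM, were all above those of the 4 KO groups, 33.4 to 38.8 CPM, with no step between neighbours larger than the sum of their SDs.

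Insig1, whose product retains SCAP when sterols are plentiful and whose gene is itself an SREBP target, was higher in KO given CP2 on average. In F the KO samples had 91.5 (L201), 126 (L216), 105 (L227), 97.5 (L233) and 116 CPM (L234), and the WT samples 88.3 (L228), 101 (L240), 84.2 (L257), 100.2 (L272) and 80.6 CPM (L311). In M the KO samples had 103 (L266), 92.1 (L291), 102 (L292), 107 (L298) and 128 CPM (L299), and the WT samples 91.6 (L259), 82.3 (L262), 70.9 (L263), 98.4 (L267) and 98.0 CPM (L289). The ranges overlapped in both letters, through L201 and L233 in F and L291 in M. The average log2 fold change was 0.25 (SE 0.079, 1.19-fold, adjusted p = 0.0306), which made Insig1 and Lss the 2 of the 7 genes called, where 11.6% of all genes were called. Neither letter passed alone: F gave 0.24 (SE 0.11, adjusted p = 0.287) and M 0.27 (SE 0.11, adjusted p = 0.127).

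The Insig1 call was lost without the low-count filter (adjusted p = 0.0550), with the fraction of reads outside genes in the model (0.0619), and without L216 (0.0677), L234 (0.0547), L257 (0.0581), L311 (0.0581), L299 (0.0698), L262 (0.0604) or L263 (0.0662). In vehicle the Insig1 average was 0.05 (SE 0.091, adjusted p = 0.792). The difference between the CP2 and vehicle effects of genotype was 0.20 (SE 0.12, adjusted p = 0.46), so the 2 treatments were not shown to differ in it.

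Set against other enzymes of the pathway, Lss stood at the top in the same fits. A list of 14 further enzymes, from Acat2 at the entry to Sc5d near the exit, joined the 6 enzymes above, and Lss was the 1 of these 20 called in any comparison of KO with WT. With 6.67% of all genes called in the vehicle average and 11.6% in the CP2 average, 1 call among 20 genes is not above the background. Its log2 fold change was the highest of the 20 in vehicle F, vehicle M, CP2 F and both averages, and 2 enzymes were above it in CP2 M. The median of the 20 was -0.06 in vehicle and 0.05 with CP2, averaged over F and M, against medians over all genes of 0.022 and 0.012. Of the 14 further enzymes, 2 were positive in vehicle (9 with the fraction of reads outside genes in the model) and 8 with CP2. In either average 0 of them were called by edgeR or DESeq2. An unadjusted edgeR p under 0.05 was reached by 5536 of 25601 genes in vehicle, 6363 with CP2, and 2 of these 14 in each. The lowest in vehicle was Ebp, a sterol isomerase late in the pathway, at -0.29 (SE 0.099, adjusted p = 0.0696), and Sc5d, the desaturase that acts before Dhcr7, was at -0.24 (SE 0.12, adjusted p = 0.233). Cyp51, which demethylates the lanosterol that Lss makes, is plotted next to Lss and was not called.

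**Figure D3:**
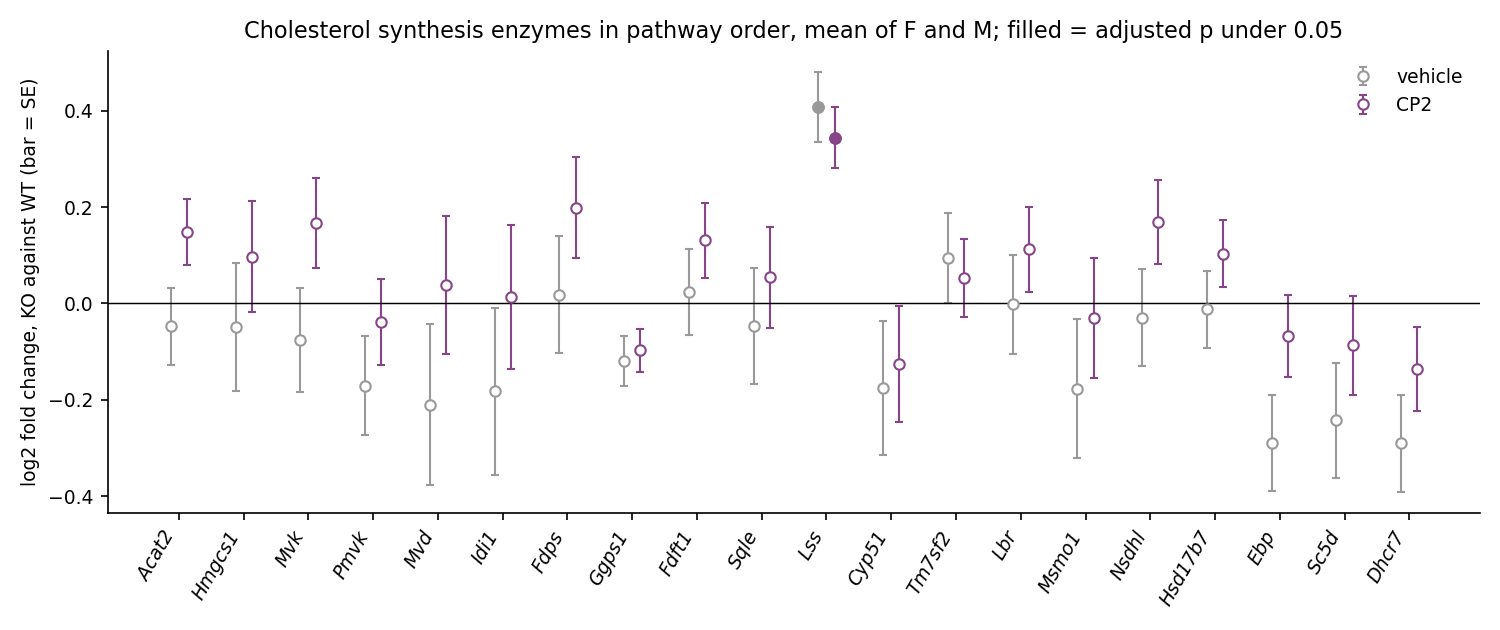
Log2 fold change, KO against WT, of 20 enzymes, averaged over F and M, in vehicle (grey) and with CP2 (purple), with SE. The enzymes run left to right in the approximate order of cholesterol synthesis, and not each of them is a successive step. Filled symbols passed an adjusted p under 0.05. Lss, at 0.41 and 0.34, is the filled gene, and the other 19 lie between -0.29 and 0.20.

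The same genotype difference can be read within each library, as a description, since Lss was picked out for its fold and the other 6 genes include Dhcr7, which lay lower in KO. The log2 CPM of Lss minus the mean of the other 6 ranged from -0.92 to -0.12 over 18 KO samples (median -0.40) and from -1.10 to -0.67 over 18 WT samples (median -0.80). In vehicle the KO values, -0.47 at the lowest (L310), all lay above the WT values, of which -0.67 was the highest (L285). With CP2 the ranges overlapped in F, where L234 was at -0.92, L233 at -0.71 and the highest WT sample, L228, at -0.70. They also overlapped in M, where L266 was at -0.70 and the highest WT sample, L289, at -0.69.

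**Figure D4:**
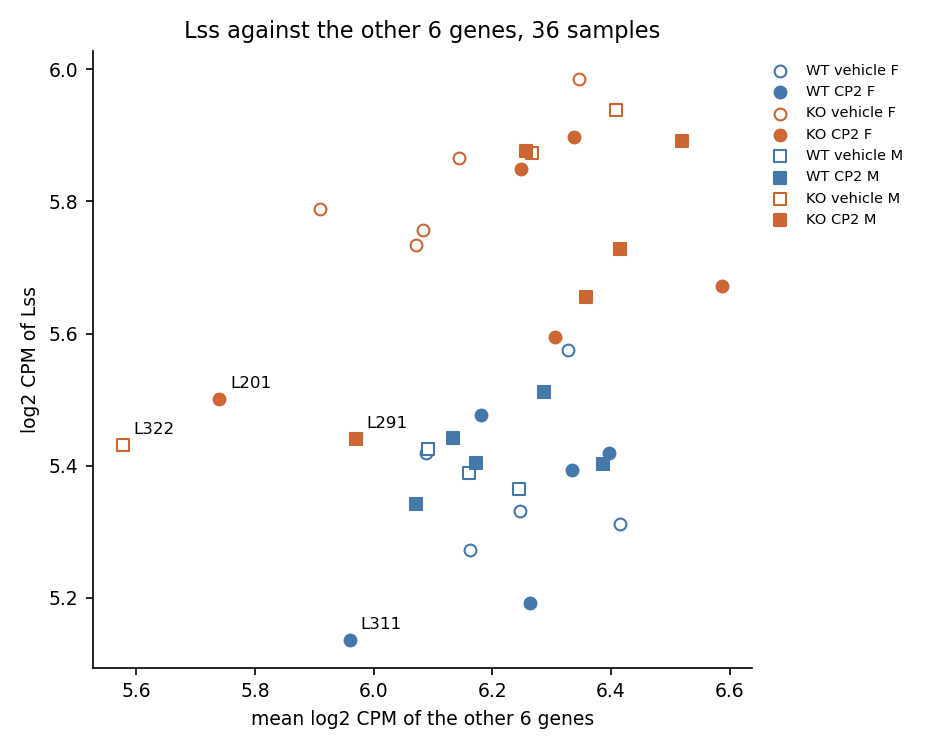
Log2 CPM of Lss (vertical) against the mean log2 CPM of the other 6 genes (horizontal) in 36 samples; circles are F and squares M, open for vehicle and filled for CP2, blue for WT and orange for KO. Most KO points lie above the WT points at the same horizontal position, and the labelled samples L201, L291, L311 and L322 lie to the left.

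No effect of CP2 on these genes passed the test in either genotype. In KO, averaged over F and M, the log2 fold change of CP2 against vehicle was 0.33 for Idi1 (SE 0.16, adjusted p = 0.288), 0.19 for Hmgcs1 (SE 0.12, adjusted p = 0.451), 0.16 for Dhcr7, 0.15 for Insig1, 0.10 for Fdft1, 0.07 for Sqle and -0.08 for Lss (SE 0.068, adjusted p = 0.596). None of the 7 was called by edgeR or DESeq2 and 0 had an unadjusted edgeR p under 0.05, where 3.91% of all genes were called (0.0859% in F and 5.1% in M). Of the 14 further enzymes 13 were positive, with a median of 0.13 against 0.0001 over all genes, and 0 were called by edgeR or DESeq2. An unadjusted edgeR p under 0.05 was reached by 1 of the 14 and by 4641 of 25601 genes. With the fraction of reads outside genes in the model, 5 of the 14 were positive. In WT the 7 values lay between -0.05 (Insig1) and 0.13 (Idi1), and edgeR called 0% of all genes in F, in M and on average, with 1031 genes at an unadjusted p under 0.05 on average and none of the 7 among them. The interaction of genotype and CP2 called none of the 7 either, with values from -0.06 for Lss (SE 0.096, adjusted p = 0.814) to 0.20 for Insig1 and Idi1, where 0.715% of all genes were called. KO against WT and CP2 against vehicle share samples, and their values are given side by side for that reason.

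No difference between F and M samples passed the test. The log2 fold changes of F against M, over both genotypes and treatments, ran from -0.05 (Dhcr7, 95% interval -0.18 to 0.08) to 0.09 (Idi1, -0.14 to 0.31), and none was called, where 10.3% of all genes were.

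Across the 36 samples, Hmgcs1, Idi1, Fdft1 and Sqle varied together. Pearson correlations of log2 CPM between them were 0.70 to 0.91 (Spearman 0.67 to 0.86), with group differences and library composition included, and are given as a description. Dhcr7 correlated with these 4 at 0.59 to 0.78, Insig1 at 0.36 to 0.59 and Lss at 0.075 to 0.38. Within the 18 KO samples the 4 genes correlated at 0.79 to 0.93 and Lss with them at 0.51 to 0.61. Within the 18 WT samples the values were 0.51 to 0.81 and -0.067 to 0.53. By Spearman the 4 genes were closer between genotypes, at 0.71 to 0.89 in KO and 0.65 to 0.84 in WT. Lss with them was at 0.38 to 0.48 in KO and -0.13 to 0.29 in WT by Spearman.

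**Figure D5:**
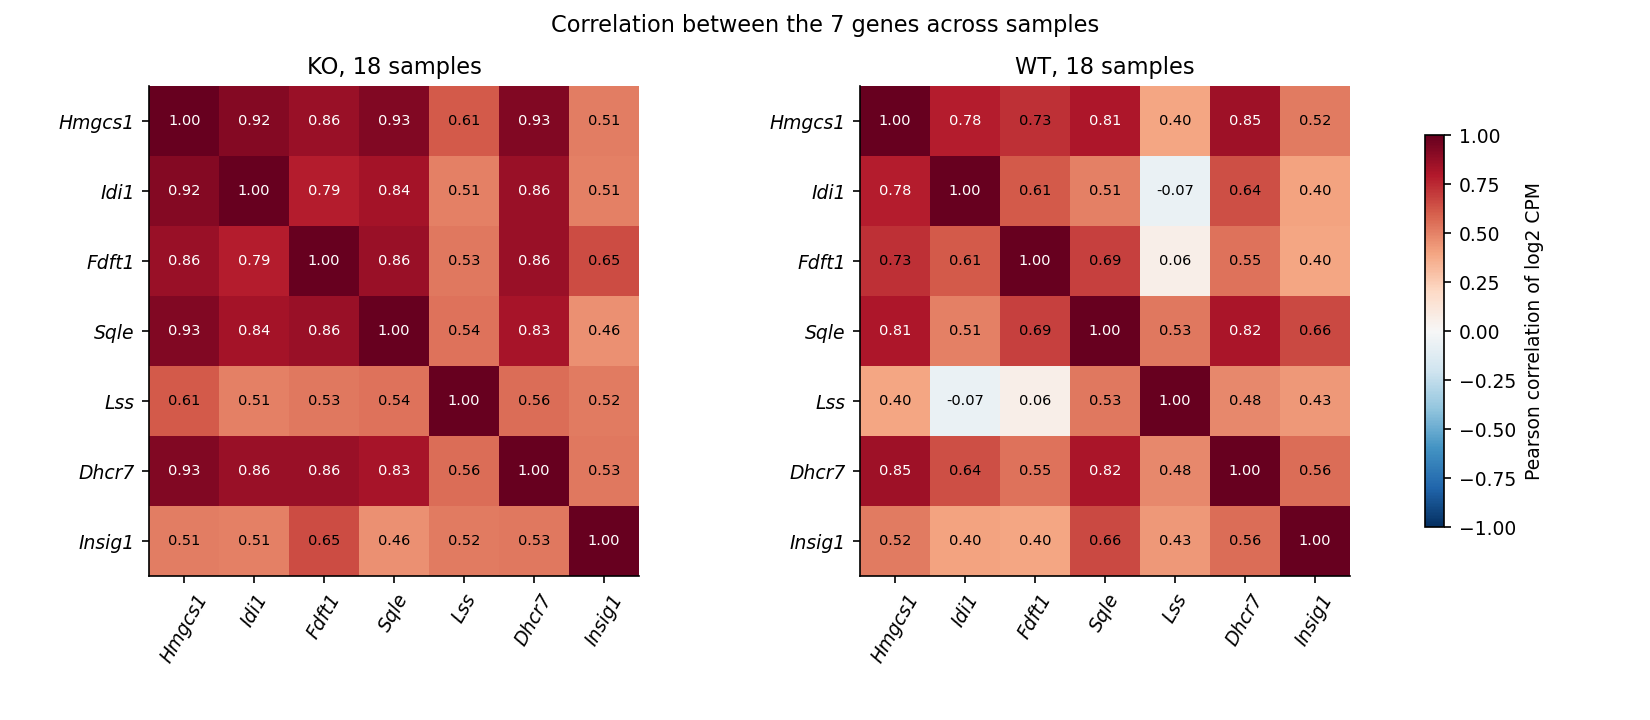
Pearson correlation of log2 CPM between each pair of the 7 genes, over 18 KO samples (left) and 18 WT samples (right). The block of Hmgcs1, Idi1, Fdft1 and Sqle is at 0.79 to 0.93 in KO and at 0.51 to 0.81 in WT. With these 4 genes, Lss (0.51 to 0.61) and Insig1 (0.46 to 0.65) are both paler in KO. In WT, Lss is at -0.067 to 0.53 with them and Insig1 at 0.40 to 0.66.

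The shared movement shows in 4 samples that were the lowest of their group in all 7 genes: L311 (WT CP2 F), L201 (KO CP2 F), L322 (KO vehicle M) and L291 (KO CP2 M). In L322, for instance, Hmgcs1 was at 171 CPM against 348 and 293 CPM in L310 and L319, and Idi1 at 11.1 CPM against 27.6 and 23.3 CPM. Genes were ranked by Pearson correlation with the mean log2 CPM of the 7, over 36 samples and 12044 genes with a mean of at least 5 CPM. The highest outside the 7 were Msmo1 (0.899), Stard4 (0.889), Cyp51 (0.833), Mvd (0.819) and Gpr17 (0.815). Of these, Msmo1, Cyp51 and Mvd encode cholesterol synthesis enzymes, Stard4 a sterol carrier, and Gpr17 a receptor of immature oligodendrocytes. The lowest were Otof (-0.722), Ddx5 (-0.704), Las1l (-0.680), Cbx7 (-0.658) and Txndc11 (-0.654).

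Of 4 regulators of the pathway, 1 passed the test. Srebf2, which encodes SREBP2, gave a log2 fold change in KO of -0.14 (SE 0.069, adjusted p = 0.229) in vehicle and -0.10 (SE 0.060, adjusted p = 0.290) with CP2. Insig2, the second sterol-responsive anchor, gave -0.13 (SE 0.058, adjusted p = 0.158) and -0.14 (SE 0.050, adjusted p = 0.0704), and Scap gave 0.00 (SE 0.047) and -0.04 (SE 0.040). Srebf1, whose product drives mainly fatty acid synthesis, was called with CP2 at 0.24 (SE 0.082, adjusted p = 0.0463), a call lost in 19 of the 36 fits that leave out 1 sample. In the list of 15 genes of the SREBP pathway and of cholesterol uptake, 0 were called by edgeR in vehicle (5 at an unadjusted p under 0.05, 1 called by DESeq2) and 3 with CP2, where 11.6% of all genes were called. These 3 were higher: Srebf1, Mbtps1, the protease that makes the first cut of SREBP (0.16, SE 0.041, adjusted p = 0.00867), and Npc2, a lysosomal cholesterol carrier (0.22, SE 0.062, adjusted p = 0.0181). The median of the list was -0.01 in vehicle and -0.04 with CP2. Npc2 lost the call without L234 (adjusted p = 0.0507) and with the fraction of reads outside genes in the model (0.0617). With CP2, that model called 2 of the list higher and 2 lower, DESeq2 3 higher and 1 lower, and a fit of only the groups compared 2 higher and 1 lower. These fits called 11.5%, 18.3% and 13.8% of all genes, in that order. In M with CP2, Npc2 was at 0.36 to 0.48 in the 36 fits that leave out 1 sample, so its M value lay above the average and its F value below it. In KO, CP2 against vehicle called 1 gene of the list by edgeR, where 3.91% of all genes were called. It was Npc2, higher by 0.30 to 0.37 in the fits that leave out 1 sample, and the covariate model called 0.

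Among 12 fatty acid genes that SREBPs also control, all 12 were negative in KO given vehicle, with a median of -0.14 against 0.022 over all genes, and 2 were called lower, where 6.67% of all genes were called. With upper-quartile library sizes 10 of the 12 were negative, and with the fraction of reads outside genes in the model 7. The called genes were Fads1, a desaturase (-0.35, SE 0.074, adjusted p = 0.00296), and Elovl6, an elongase (-0.39, SE 0.12, adjusted p = 0.0381). With CP2 the median was 0.00, and Elovl6 was the 1 call (-0.30, SE 0.10, adjusted p = 0.0451), where 11.6% of all genes were called. With CP2, upper-quartile library sizes and no low-count filter each called 0 of the 12. The model with the fraction of reads outside genes called 2 of the 12 lower, and 11.5% of all genes. In vehicle, 1 of the 12 was called lower without the low-count filter, and 1 in a fit of only the groups compared. Those vehicle fits called 3.03% and 5.55% of all genes. The Elovl6 calls were lost in 9 and 14 of the 36 fits that leave out 1 sample, and with the fraction of reads outside genes in the model the vehicle calls of Fads1 (-0.22, adjusted p = 0.147) and Elovl6 (-0.27, adjusted p = 0.354) were lost.

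Among the genes of cholesterol export, storage and turnover, Lcat was lower in KO given vehicle. Lcat, which esterifies cholesterol on lipoprotein particles, was at 15.9 ± 3.13 CPM (SD, n = 5) in KO vehicle F against 26.7 ± 4.97 (n = 5) in WT vehicle F, and at 14.3 ± 3.15 (n = 3) in KO vehicle M against 27.3 ± 2.58 CPM (n = 3) in WT vehicle M. Its log2 fold change averaged over F and M was -0.84 (SE 0.12, adjusted p = 3.62e-05). Of 14 genes in that list 3 were called by edgeR in vehicle, where 6.67% of all genes were called. DESeq2 called 4 of the list lower and 1 higher in vehicle, and 11.97% of the genes it tested. The 3 edgeR calls were lower: Lcat, Cyp27a1, a sterol hydroxylase (-0.52, SE 0.12, adjusted p = 0.00777), and Nr1h2, the sterol receptor LXR beta (-0.18, SE 0.055, adjusted p = 0.0412). The Nr1h2 call was lost in 17 of the 36 fits that leave out 1 sample, with upper-quartile library sizes (adjusted p = 0.0879), without the low-count filter (0.0762) and in a fit of only the groups compared (0.0819). With CP2, where 11.6% of all genes were called, Abca1, the exporter of cholesterol to ApoE, was called higher (0.28, SE 0.093, adjusted p = 0.0402), and Nr1h2 (-0.19, SE 0.048, adjusted p = 0.00613) and Abcg4 (-0.16, SE 0.050, adjusted p = 0.0246) lower. The Abca1 call was lost in 12 of the 36 fits that leave out 1 sample and the Abcg4 call in 3, and both were lost without the low-count filter (adjusted p = 0.0801 and 0.0518) and without L266 and L291 together (0.0980 and 0.0594). CP2 raised Lcat in KO by a log2 fold change of 0.46 (SE 0.11, adjusted p = 0.0121), where 3.91% of all genes were called. That call was lost without L322 (adjusted p = 0.0783) and in a fit of only the groups compared, which called 0 of the list. It was also lost with the fraction of reads outside genes in the model (0.27, adjusted p = 0.603). In vehicle, that term ended the calls of Cyp27a1 (adjusted p = 0.106) and Nr1h2 (0.391) but not the average of Lcat.

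Markers of brain cell types, none of them at 0 in any group, moved with some of these comparisons, and their part in the results was not tested. The 10 markers of myelinating oligodendrocytes had 0 calls by edgeR in KO against WT given vehicle, where 6.67% of all genes were called. An unadjusted p under 0.05 was reached there by 4 of the 10 and by 5536 of 25601 genes. With CP2 these 10 markers had 2 calls, both higher, where 11.6% of all genes were called. In KO, CP2 against vehicle called 5 of the 10 higher (median 0.41), where 3.91% of all genes were called. With the fraction of reads outside genes in the model that contrast called 0 genes, so these 5 calls were lost. Their summed level was 8247 to 9740 CPM in KO vehicle M, 8638 to 16047 in KO CP2 M, 8198 to 12123 in KO vehicle F and 10698 to 14635 CPM in KO CP2 F. Of the 7 astrocyte markers 0 were called by edgeR in vehicle (2 at an unadjusted p under 0.05) and 1 with CP2, Gfap (1.28). The shares of all genes called were again 6.67% and 11.6%, and 5536 genes again had an unadjusted p under 0.05 in vehicle. All 4 red cell markers had negative log2 fold changes in KO given vehicle (from -2.42 for Hbb-bt to -1.90 for Hba-a1). Their summed level was 71.7 to 124 CPM in KO and 83.3 to 377 CPM in WT for F, where the ranges overlapped. For M it was 36.7 to 82.8 CPM in KO and 111 to 634 CPM in WT, with 3 samples in each group. These M ranges did not overlap, and 10.3% of all genes were lower in KO without overlap in that comparison. Across 36 samples, the mean of the 7 genes correlated at 0.676 with the oligodendrocyte markers, 0.696 with the astrocyte markers and 0.186 with the neuron markers, while Lss correlated with these at 0.088, 0.34 and 0.022. The mean of the 7 also correlated at 0.666 with markers of oligodendrocyte precursors and newly formed oligodendrocytes, and at 0.562 with those of microglia. Within WT the astrocyte value was 0.409 and the microglia value 0.247, and within KO they were 0.762 and 0.650. The share of reads outside genes averaged 9.24% in KO vehicle F and 5.99% in WT vehicle F, 12.1% and 10.2% in the M groups, 7.54% and 6.02% in CP2 F, and 7.33% in KO CP2 M against 11.5% in WT CP2 M. It correlated with the mean of the 7 genes at -0.416 and with Lss at 0.068, and with this share in the model Lss stayed called in both averages (0.48, adjusted p = 0.00155, and 0.30, adjusted p = 0.00114).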

How the data were processed

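PolyA-selected RNA of 36 mouse brain samples was sequenced from Illumina TruSeq libraries, per the labels' protocols. The deposited values are raw counts per Ensembl gene, in 1 table whose last 5 rows are summary lines of the counting program, per the file headers; STAR, HTSeq and the build GRCm39 are named in the submitters' processing notes, and the annotation release and strand setting are not given in the sources used here. The summary lines were left out of library sizes: 5.09 to 13.2% of reads per sample were outside genes, 4.05 to 5.91% not unique and 1.79 to 2.17% ambiguous. Symbols from a name table matched 52073 of 56980 identifiers (91.4%, with 97.2% of counts). Exon lengths and neighbours came from GENCODE M21 (GRCm38), another build than that of the counts, so no coordinates of the genes themselves are given; promoter windows have RefSeq's coordinates on GRCm38.p6.

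Groups followed the genotype and treatment labels and the letter in the title. All 36 samples entered 1 fit of edgeR 4.0.16, run under R 4.3.3 (filterByExpr by group, TMM normalization, estimateDisp, robust glmQLFit, glmQLFTest), with a coefficient per group. It tested 25601 genes in 19 contrasts, with Benjamini-Hochberg adjustment over all genes of a contrast and a call at an adjusted p under 0.05. An average over F and M weights both letters equally. SE is the size of the log2 fold change over the root of the F statistic, and 95% intervals are 1.96 SE to either side. CPM used TMM library sizes, and log2 CPM a prior count of 2. The 66 pairs of replicates had a mean chi-square per gene of 11.5 to 117, so none agreed within sampling noise. On simulated counts over 24772 genes, the KO against WT vehicle F contrast called 52% of changes of 0.5 and 80% of changes of 1 on the log2 scale, and the M contrast 35% and 71%.

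Alternatives were DESeq2 1.42.0, upper-quartile library sizes, no low-count filter, a fit of only the groups compared, the fraction of reads outside genes as a model term and each sample left out; a fit without L266 and L291 together was chosen after seeing the data. The 7 genes and the wider lists were chosen with earlier results of these data known. Named genes outside the 7 are the regulators Srebf1, Srebf2, Scap and Insig2, at most 3 called genes per list and contrast with the lowest adjusted p, and the 5 highest and 5 lowest in likeness; Ebp, Sc5d and Gfap were named after their values were seen. Some genes of the wider lists are not reported here and were left out of the lists' counts and the likeness. Promoter strings were searched on both strands.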

Additional observations from a re-analysis of the deposited data

Results flagged for a closer look

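In 42 groups of 5 samples, each gene in each such group, the highest and the lowest sample were compared with the rest by Dixon's criterion, which flags about 1 group in 20 by chance. It marked 2 samples, both lowest of their group in all 7 genes. Sqle was at 62.2 CPM in L311 (WT CP2 F), against 77.8 to 81.4 CPM in the other 4 samples of that group. Dhcr7 was at 27.7 CPM in L291 (KO CP2 M), against 39.6 to 44.1 CPM in the other 4. L291 is also the M sample with 47.3 CPM of Xist.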

How the results depend on the processing

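Of the 7 genes, the number called moved in these fits. KO against WT in vehicle M gave 1 with DESeq2 in place of 0. The vehicle average gave 2 in a fit of only the groups compared in place of 1 (Dhcr7 added), and 1 to 2 with each sample left out. CP2 F gave 0 in a fit of only the groups compared in place of 1, and 0 to 1 with each sample left out. CP2 M gave 0 with the fraction of reads outside genes as a covariate in place of 1, and 0 to 1 with each sample left out. The CP2 average gave 1 without the low-count filter and 1 with the covariate in place of 2 (Insig1 lost), and 1 to 2 with each sample left out. The cause was not tested. The other 774 counts over contrasts and fits stayed the same, and no called log2 fold change turned its direction. The number of all genes called moved more: with the covariate, KO against WT called 156 in place of 1270 genes in vehicle F, 66 in place of 132 in vehicle M, 273 in place of 511 in CP2 F and 862 in place of 2558 in CP2 M. For the vehicle average it called 1.14% of genes in place of 6.67%, and for CP2 against vehicle in KO 0 in place of 1002 on average. A fit of only the groups compared called 456 genes in vehicle F, 483 in vehicle M, 40 in CP2 F and 4009 in CP2 M, and 159 for CP2 against vehicle in KO. DESeq2 called 569 genes in vehicle M, 906 in CP2 F and 1580 for CP2 against vehicle in KO, and without the low-count filter vehicle F had 828. For F against M the covariate left 140 of 2630, and for the average interaction 0 of 183, where DESeq2 called 582. No paired analysis was possible because no replicate number is shared between groups. With 3 samples in KO vehicle M and WT vehicle M, these groups give the least precision.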

Other observations

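The genes whose log2 CPM followed Lss most closely were ranked within each genotype, among 12044 genes, as a description chosen after the values were seen; whether a correlation differed between the genotypes was not tested. Over 18 KO samples the highest Pearson correlations were with Ier5 (0.729), Pcid2 (0.712), Fasn, fatty acid synthase (0.704), Wnt10a (0.688) and Schip1 (0.686). Over 18 WT samples they were with Gpatch3 (0.808), Scube3 (0.793), Rcor2 (0.747), Hirip3 (0.744) and Ewsr1 (0.741). Of the genes next to Lss in GENCODE M21, Col6a2, a collagen chain 38624 bases away on the opposite strand, was also higher in KO given vehicle (log2 fold change 0.53, SE 0.11, edgeR adjusted p = 0.00307) and with CP2 (0.29, SE 0.098, adjusted p = 0.0499). Mcm3ap, 15731 bases away, gave 0.04 (SE 0.053, adjusted p = 0.727) in vehicle and -0.16 (SE 0.046, adjusted p = 0.0161) with CP2. An antisense gene that shares exon with Lss, 4930483K19Rik, was at 0.108 CPM, against 47.9 CPM of Lss. These neighbours were chosen after their values were seen.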
